A study of Mus musculus with 32 samples.

Results

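Id1, Id2, Id3 and Id4, the inhibitor of DNA binding genes, were followed from transferred monocytes into the intestinal macrophages that grew from them. They are 4 of the 24411 genes of the first count table and of the 24421 of the second, taken by symbol, and the family was chosen by its levels in the graft and in the gut, where Id1 and Id2 lay on opposite sides of the graft. Values of the 4 members that set a gut group against the graft are therefore given as a description without a test. The proteins are helix-loop-helix factors without the basic region that touches DNA. They pair with E proteins, the products of Tcf3, Tcf4 and Tcf12, and keep these from binding E-box sequences. Id genes are known as targets of bone morphogenetic protein (BMP) and TGF-beta signals through SMAD factors, and Id2 is known for its part in the development of dendritic cells and innate lymphoid cells. In the intestine Id genes are also expressed outside the macrophages, among others in epithelial and stromal cells.

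Recipients were C57BL/6J bone marrow chimeras that received monocytes of Cx3cr1 gfp/+ donors after depletion with diphtheria toxin, at 18 ng per gram before transfer and 9 ng per gram after it. The graft group is the sorted CD115+ Ly6C+ monocyte before transfer, with 3 libraries and no toxin, whose labels give blood as the organ although the extraction text describes marrow. In the first experiment the recipients carried CD11c-DTR (Itgax-DTR/GFP) marrow, and the labels give the cells sorted from colon and ileum as CD45+ CD11b+ CD64+ Ly6C- MHCII+. In the study graft-derived cells were recognised by CD45.1 and by GFP from the Cx3cr1 locus. These gave 3 main libraries of colon on day 4, 3 on day 8 and 4 on day 12, and 4 of ileum on each day. A further colon library of day 8, from experiment 1, is given by itself. The study's list counts 3 repeats for that group and does not say which libraries they are. Leaving this one out of the main set was a choice made here. In the second experiment recipients carried Cx3cr1-DTR marrow, and 6 colon libraries with the same gate in the labels were used, whose titles add that only GFP+ cells were taken. The labels give them no day, and day 14 is taken from the text on the study. The study's own list counts fewer repeats for this group, and which of the libraries it means is not known, so all were used. Both toxin receptors are driven by myeloid promoters, so only host cells that express them were depleted. Ages and the number of mice behind a library were not used here, and nothing in the labels ties libraries to separate recipients, so p-values measure the spread between libraries. Some colon and ileum titles share a date and a number or tag, so such libraries may come from the same mouse. The tests between segments did not pair them.

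Between 591817 and 5228664 reads fell on genes per CD11c-DTR library and between 1223772 and 4218027 per CX3CR1-DTR library. Markers of epithelium were present in all gut libraries beside those of macrophages, which touches all results below. Transcripts of 16 epithelial marker genes (Epcam, Krt8, Vil1 and others) summed to 40.7 to 70.2 normalized reads in the graft, to 123910 to 192098 in the 10 colon libraries and to 25973 to 147993 in the 12 ileum libraries. Normalized reads are reads per 10000000 mapped reads. Transcripts of 11 macrophage markers (C1qa, Csf1r, Mertk and others) summed to 10116 to 12641 in the graft, 4248 to 23837 in colon and 11063 to 114160 in ileum. In colon of day 4, C1qa had 2607 ± 1166 normalized reads (30.2 ± 13.6 in the graft), whereas Csf1r had 814 ± 294 (4997 ± 910 in the graft) and Cd68 255 ± 138 (2557 ± 440 in the graft). Mertk and Mrc1 were each at 0 in 1 CX3CR1-DTR library. On the scale of reads on genes, the CX3CR1-DTR libraries held 240352 to 314765 of the epithelial markers and 11901 to 26802 of the macrophage markers. Epithelial cells lie outside the CD45+ CD11b+ CD64+ gate. Of the 16 epithelial markers 8 were at 0 in each graft library, and fewer cells of a type and less RNA per cell cannot be told apart in bulk libraries. Among ileum libraries of day 4, replicates 2 and 3, both of experiment 1, held 147993 and 135265 of the epithelial markers, and replicates 1 and 4 held 39911 and 48999.

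The stretch that carries the shared function is shown first, because it is the part in which the 4 genes can be compared base by base. It is the 120-base coding window with the most bases identical in all 4 genes, 69 of 120, and lies in the helix-loop-helix region. Capitals mark bases shared by all 4, the sequences are from GENCODE transcripts on mm9, and each window lies within exon 1.
Id1, chr2:152562254-152562373, plus strand: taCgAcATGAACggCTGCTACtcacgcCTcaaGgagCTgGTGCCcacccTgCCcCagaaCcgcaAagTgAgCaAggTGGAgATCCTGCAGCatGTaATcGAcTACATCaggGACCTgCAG
Id2, chr12:25780648-25780767, minus strand: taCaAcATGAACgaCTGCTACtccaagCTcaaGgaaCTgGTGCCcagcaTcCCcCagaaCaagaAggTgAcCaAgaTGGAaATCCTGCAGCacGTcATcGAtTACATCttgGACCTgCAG
Id3, chr4:135699917-135700036, plus strand: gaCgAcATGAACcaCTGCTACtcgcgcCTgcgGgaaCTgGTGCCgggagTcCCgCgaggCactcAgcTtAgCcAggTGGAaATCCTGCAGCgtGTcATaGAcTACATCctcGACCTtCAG
Id4, chr13:48357062-48357181, plus strand: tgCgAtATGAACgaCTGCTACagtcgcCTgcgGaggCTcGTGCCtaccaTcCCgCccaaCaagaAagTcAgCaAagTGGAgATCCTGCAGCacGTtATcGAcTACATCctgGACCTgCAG
Id1 and Id2 were the most alike pair in this window, with 81.7% identity, and Id1 and Id3 as well as Id3 and Id4 the least alike, with 70.8%. The longest exact stretch that any pair of the 4 full transcripts shared was 19 bases, between Id2 and Id3. On mm9 the counted exons belong to NM_010495 for Id1 (chr2:152561987-152563146, plus strand), NM_010496 for Id2 (chr12:25778664-25780957, minus strand), NM_008321 for Id3 (chr4:135699737-135701307, plus strand) and NM_031166 for Id4 (chr13:48356796-48359405, plus strand). The only annotated gene that overlaps a member is A330033J07Rik, which runs antisense to the start of Id4, and counting was done by strand.

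The bases upstream of the start are shown for 3 members, because Id3 and Id4 had few or no reads in the graft and Id2 was its most abundant member. RefSeq windows of 250 bases on GRCm38.p6 were at hand for Id2, Id3 and Id4 and not for Id1. Capitals mark CANNTG (the E-box), GGCGCC (a BMP-SMAD motif), GTCTG (a SMAD motif) and CCAAT, each searched on both strands, and no 2 of the marked motifs overlap.
Id2, chr12:25096093-25096342, minus strand: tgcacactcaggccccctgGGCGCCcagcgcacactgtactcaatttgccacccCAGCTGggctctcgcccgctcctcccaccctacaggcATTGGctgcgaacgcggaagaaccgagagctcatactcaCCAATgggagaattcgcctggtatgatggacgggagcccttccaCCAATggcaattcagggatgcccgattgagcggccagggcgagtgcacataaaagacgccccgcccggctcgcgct
Id3, chr4:136143572-136143821, plus strand: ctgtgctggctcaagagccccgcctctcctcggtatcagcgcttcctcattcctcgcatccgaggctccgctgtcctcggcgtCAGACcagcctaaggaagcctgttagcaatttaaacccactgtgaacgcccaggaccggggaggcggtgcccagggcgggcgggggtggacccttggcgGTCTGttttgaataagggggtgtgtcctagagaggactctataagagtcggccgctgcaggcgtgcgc
Id4, chr13:48260866-48261115, plus strand: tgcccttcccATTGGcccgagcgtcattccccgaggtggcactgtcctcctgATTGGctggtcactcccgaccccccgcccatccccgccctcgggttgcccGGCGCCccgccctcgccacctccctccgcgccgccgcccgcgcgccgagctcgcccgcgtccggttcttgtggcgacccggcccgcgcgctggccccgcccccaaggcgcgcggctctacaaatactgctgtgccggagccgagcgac
The Id2 window held 1 CANNTG, 1 GGCGCC and 3 CCAAT, the Id3 window 2 GTCTG and the Id4 window 1 GGCGCC and 2 CCAAT. Of all 32851 windows of this length, 66.2% held CANNTG, 9.59% GGCGCC, 42.2% GTCTG and 33.8% CCAAT. These matches are letters in a window and no sites were measured.

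In the graft, Id2 was the most abundant member. It had 1645, 1961 and 1385 normalized reads in the 3 libraries, Id1 had 598, 626 and 528, and Id3 had 47.7, 17.4 and 67.8, while no read of Id4 was found. Levels of different genes are compared per kilobase of counted exon. On that scale Id2 had 1313 ± 228 (SD, n = 3), Id1 628 ± 54.2 and Id3 46.8 ± 26.7, and the 3 ranges did not overlap. Since reads come from the 3′ ends of transcripts, division by length may not fit them, and on the scale without it the order was the same. Id2 made up 72.3% ± 2.72 of the reads on the 4 Id genes, Id1 25.6% ± 1.38 and Id3 2.06% ± 1.38.

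In colon, Id1 was the most abundant member and Id3 the second. Id1 had 2477, 1663 and 2542 normalized reads on day 4, 2799, 2865 and 2066 on day 8, and 3571, 1544, 1361 and 2452 on day 12. All 10 libraries lay above the 3 of the graft, and the group means were 3.81, 4.41 and 3.82 times the graft mean. Id2 had 287, 273 and 588 normalized reads on day 4, 432, 193 and 283 on day 8, and 607, 333, 398 and 318 on day 12. All 10 lay below the graft, whose mean was 4.35, 5.49 and 4.02 times higher. The 2 genes thus lay on opposite sides of the graft, which is the pattern that chose the family.

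**Figure D1:**
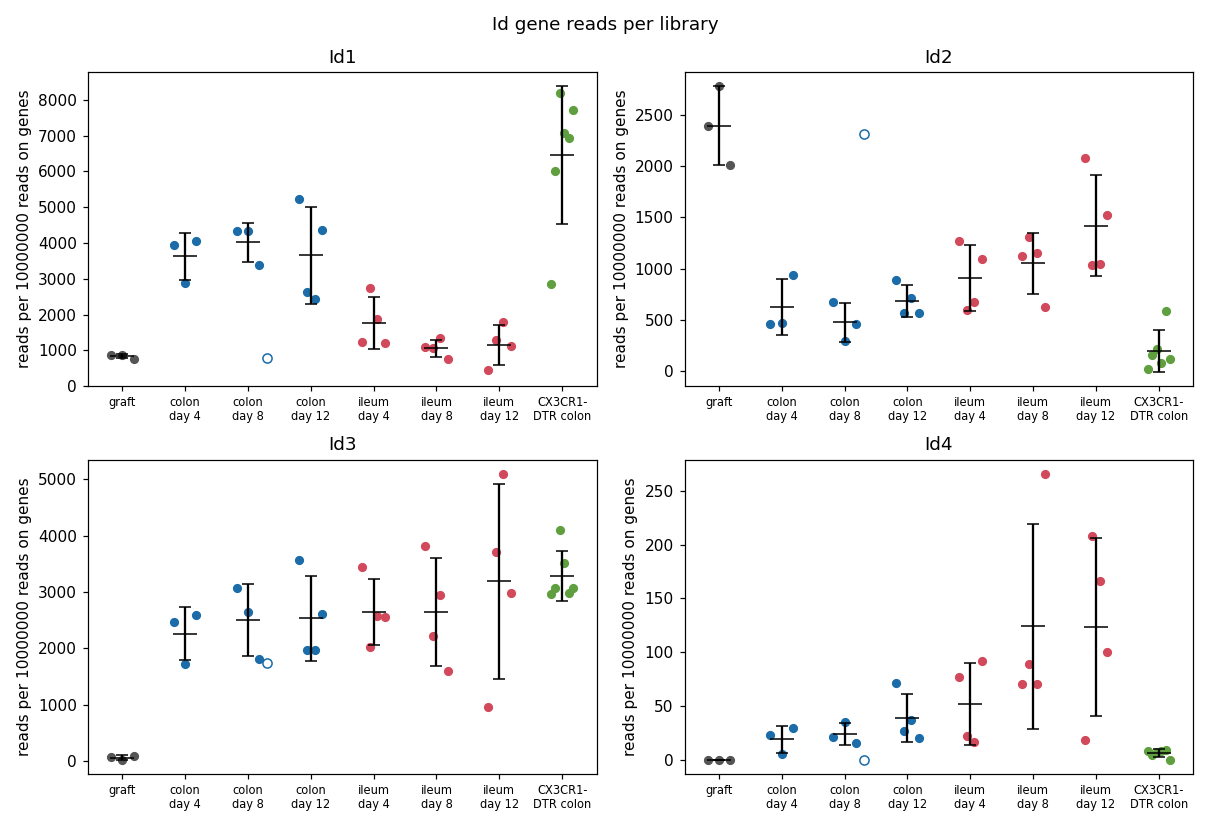
Reads of Id1, Id2, Id3 and Id4 per 10000000 reads on genes (linear axes that start at 0 or just below it) in each library of 8 groups, with filled points for libraries, black bars for the mean and SD, and an open point for the colon day 8 library outside the main set. Id2 is highest in the graft, Id1 in the colon groups, and Id4 is at 0 in the graft.

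Among the 3 members with reads in the graft, Id3 had the largest fold difference from it. In colon it had 1541, 999 and 1631 normalized reads on day 4, 1986, 1746 and 1114 on day 8, and 2442, 1161, 1110 and 1471 on day 12. In ileum it had 1621, 1200, 1410 and 1384 on day 4, 1906, 1439, 1533 and 819 on day 8, and 577, 2217, 2707 and 1492 on day 12. All 22 libraries lay above the 3 graft values, and the group means were 31.4 to 39.4 times the graft mean. Graft values of Id3 rested on 17, 9 and 28 counts. Without graft replicate 3 the fitted log2 difference between graft and colon on day 4 was 5.78 and without graft replicate 2 it was 4.86, beside 5.30 with all libraries. Id4, a member known best from neural and bone cells, had 2.96 to 48.7 normalized reads in colon from 1 to 25 counts. In ileum it had 36.3, 12.8, 9.22 and 49.9 on day 4, 35.2, 57.3, 36.8 and 136 on day 8, and 11.3, 124, 88.4 and 50.3 on day 12, with both segments overlapping on each day but day 8. Set against a floor of 3 counts per graft library, the Id4 mean was higher by a factor of 3.37 or more in colon on day 12, and of 9.26 or more and 9.56 or more in ileum on days 8 and 12. The factor in colon was 2.22 without day 12 replicate 1, and that in ileum on day 8 was 6.02 without replicate 4. For Id4 the counted exons end at chr13:48359405 on mm9, so reads beyond that point would not be counted.

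In ileum, Id3 had the highest mean of the members on each day. Ileum day 4 replicate 2 had more of Id1 than of Id3, and ileum day 12 replicate 1 more of Id2. Per kilobase it had 1502 ± 476 (SD, n = 4) on day 8 against 623 ± 159 for Id1 and 459 ± 169 for Id2, and the ranges of Id1 and Id2 overlapped. Id1 in ileum was close to the graft on days 8 and 12 and higher in the mean on day 4. It had 584, 1629, 1032 and 656 normalized reads on day 4, 545, 691, 696 and 384 on day 8 and 269, 763, 949 and 556 on day 12, and its means were 1.67, 0.992 and 1.09 times that of the graft. The 2 high values of day 4, 1629 and 1032, were the 2 libraries of experiment 1 with high epithelial markers. Id2 had 598, 352, 369 and 592 normalized reads on day 4, 561, 843, 602 and 320 on day 8 and 1252, 616, 554 and 763 on day 12. All 12 lay below the 3 graft values, with a graft mean 3.48, 2.86 and 2.09 times higher. Summed over the 4 genes, normalized Id reads averaged 2292 in the graft, 4012, 4510 and 4217 in colon and 2884, 2651 and 3247 in ileum on days 4, 8 and 12.

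Scaling matters for the distance to the graft. Under the TMM scaling of the fit the median gene was 0.20 to 0.24 (log2) higher in gut than in graft, and under scaling by mapped reads it was 0.04 to 0.35 lower. Relative to the median of all genes, the fitted log2 difference of Id1 from the graft was 2.05, 2.17 and 2.00 in colon on days 4, 8 and 12 and 0.95, 0.32 and 0.34 in ileum. For Id2 it was -1.99, -2.42 and -1.92 in colon and -1.60, -1.21 and -0.78 in ileum, and for Id3 it was 5.09 to 5.22 in colon and 5.20 to 5.52 in ileum. The sign for Id1 in ileum on day 8 turned with the scaling, from 0.52 under TMM to -0.01 by mapped reads.

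The make-up of the Id reads needs no scaling between libraries. In colon, Id1 took 47.1% to 59.5% of Id reads, Id3 32.1% to 38.4% and Id2 4% to 13.8%. In ileum on days 8 and 12, Id3 took 27.4% to 63%, Id1 12.8% to 24.3% and Id2 12.9% to 59.3%. On day 4 the ileum shares of Id1 were 20.6%, 51.0%, 36.6% and 24.5%, and replicate 2, with 51.0% of Id1 and 37.6% of Id3, lay within the colon ranges. The colon day 8 library of experiment 1 lay outside them, with 16.4% of Id1 and 47.7% of Id2. The highest share of Id2, 59.3%, and the lowest of Id3, 27.4%, were those of ileum day 12 replicate 1, the library with the most macrophage markers (114160 normalized reads) and the fewest epithelial ones (25973). The log2 ratio of Id1 to Id3 was 0.69 ± 0.05, 0.70 ± 0.20 and 0.50 ± 0.19 in colon on days 4, 8 and 12 and -0.64 ± 0.83, -1.27 ± 0.36 and -1.39 ± 0.20 in ileum. On each day every colon library lay above every ileum library, other than the colon day 8 library of experiment 1, which is not in these means. Two-sided exact permutation tests of the 3 differences (n = 3 or 4) gave p = 0.0571, 0.0571 and 0.0286, the smallest each design allows. After Benjamini-Hochberg adjustment over the 3 days each was 0.0571. The colon levels of Id1 helped to choose the family, so these p-values are not independent of that choice. The ratio was not a planned comparison.

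**Figure D2:**
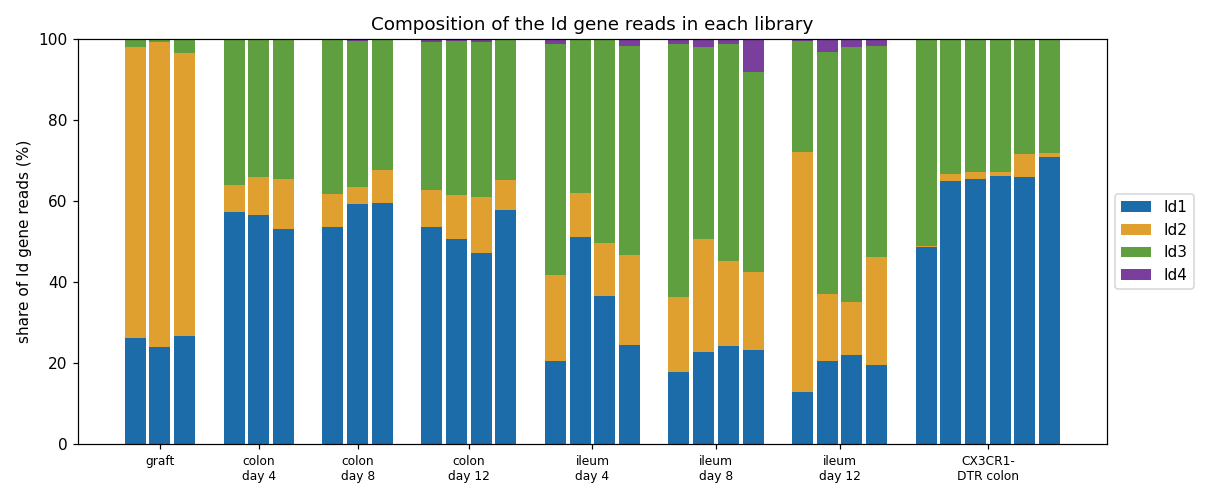
Share of each member among the reads on the 4 Id genes (percent, stacked to 100) in each library, grouped by graft, segment and day. Id2 takes 69.9% to 75.3% in the graft, Id1 the largest share in colon, and Id3 the largest share in most ileum libraries.

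The comparison between segments was tested by edgeR's quasi-likelihood test over all genes. It is not the contrast that chose the members, but the colon levels of Id1 and Id2 that did so are 1 side of it, so the p-values of these 2 genes are not independent of the choice. Id1 was higher in colon than in ileum, with a log2 fold change of 1.87 ± 0.34 (SE) on day 8 (adjusted p = 0.000438) and 1.69 ± 0.32 on day 12 (adjusted p = 0.00073). On day 4 it was 1.07 ± 0.34 and did not pass (adjusted p = 0.0688). In normalized reads every main colon library lay above every ileum library on all 3 days, on day 4 with 1663 as the lowest of colon and 1629 as the highest of ileum. The colon day 8 library of experiment 1, outside the main set, had 476, within the 384 to 696 of ileum on that day. Without the 2 ileum libraries of experiment 1 the log2 fold change on day 4 was 1.79 (adjusted p = 0.00118), and without ileum day 4 replicate 2 alone it was 1.41 (adjusted p = 0.00754). With experiment as a replicate block the day 4 value was 1.43 (adjusted p = 0.0146). Of all 11842 genes tested, 3.18% passed in either direction on day 4, 35% on day 8 and 32.5% on day 12, so calls on the later days were common. On day 4 the share was 26% without the ileum libraries of experiment 1, 17.7% without ileum replicate 2, 10.7% with the block and 9.12% by DESeq2.

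Id2 was lower in colon than in ileum, by -1.20 ± 0.34 on day 8 (adjusted p = 0.00975) and -1.12 ± 0.31 on day 12 (adjusted p = 0.00796). On day 4 the difference was -0.42 ± 0.34 (adjusted p = 0.51). The study itself picked Id2 from these libraries, so its p-values are not those of a gene picked without the data. The normalized reads of the 2 segments overlapped on each day, and both calls rested on single libraries. Without colon day 8 replicate 3 the day 8 value was -0.95 (adjusted p = 0.0669), and without ileum day 12 replicate 1 the day 12 value was -0.78 (adjusted p = 0.0576). With the colon day 8 library of experiment 1 added, which had 1382 normalized reads of Id2, the day 8 value was -0.06 (adjusted p = 0.943) and that of day 12 missed the threshold (-1.12, adjusted p = 0.0791). In the equal-variance test on log2 values neither call was made (adjusted p = 0.197 and 0.105). That test called 21.2% of all genes on each of these days, and 27.9% were called on day 12 with the added library.

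Id3 did not pass between segments on any day. The log2 differences between colon and ileum and their 95% intervals were -0.13 (-0.86 to 0.59) on day 4, -0.10 (-0.82 to 0.62) on day 8 and -0.30 (-0.97 to 0.37) on day 12. Id4 was lower in colon by -2.53 ± 0.76 on day 8 (adjusted p = 0.0140) and gave -1.59 ± 0.64 on day 12 (adjusted p = 0.0610) and -1.18 ± 0.82 on day 4 (adjusted p = 0.429). It reached the filter of 50 normalized reads in 5 ileum libraries and in no colon library, so its presence among the genes tested already rests on ileum. The day 8 call of Id4 was lost without ileum day 8 replicate 4 (-1.70, adjusted p = 0.0721) and without colon day 8 replicate 4 (-2.23, adjusted p = 0.0771). On day 12 Id4 was called by DESeq2 (35.6% of all genes called), without the ileum day 4 libraries of experiment 1 (37.5%), and without colon or ileum day 12 replicate 1 (26% and 25.8%).

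**Figure D3:**
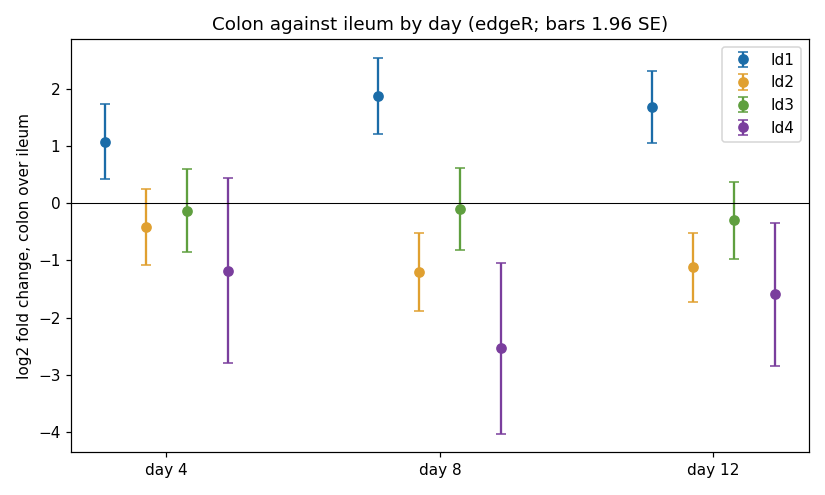
Fitted log2 fold change of colon over ileum for each member on days 4, 8 and 12 (points) with bars of the 95% interval and a line at no difference. Id1 lies above the line with bars clear of it, Id3 lies on it, and Id2 and Id4 lie below it on days 8 and 12.

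The markers of other cells moved with the segment as well. On day 12, 13 of 16 epithelial markers were higher in colon than in ileum and 1 was lower, while 9 of the 10 macrophage markers tested and 6 of 7 endothelial markers were lower in colon and none of either list was higher. The median log2 differences were 1.53, -2.06 and -2.08, beside -0.01 over all genes. Of all genes 15.3% were called higher in colon on day 12 and 17.2% lower. Among the 12 ileum libraries, Pearson's r of Id1 with the summed epithelial markers was 0.89, that of Id2 with the macrophage markers 0.85 and that of Id3 with fibroblast markers 0.74, all on log2 values and given as a description, since the points share library and depth. The r of Id2 with markers of conventional dendritic cells was also 0.85, a sum in which Dpp4 had the most reads, and that of Id1 was 0.80 with monocyte and -0.81 with B cell markers. Among the 10 colon libraries the first 3 values were 0.60, 0.23 and 0.65.

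**Figure D4:**
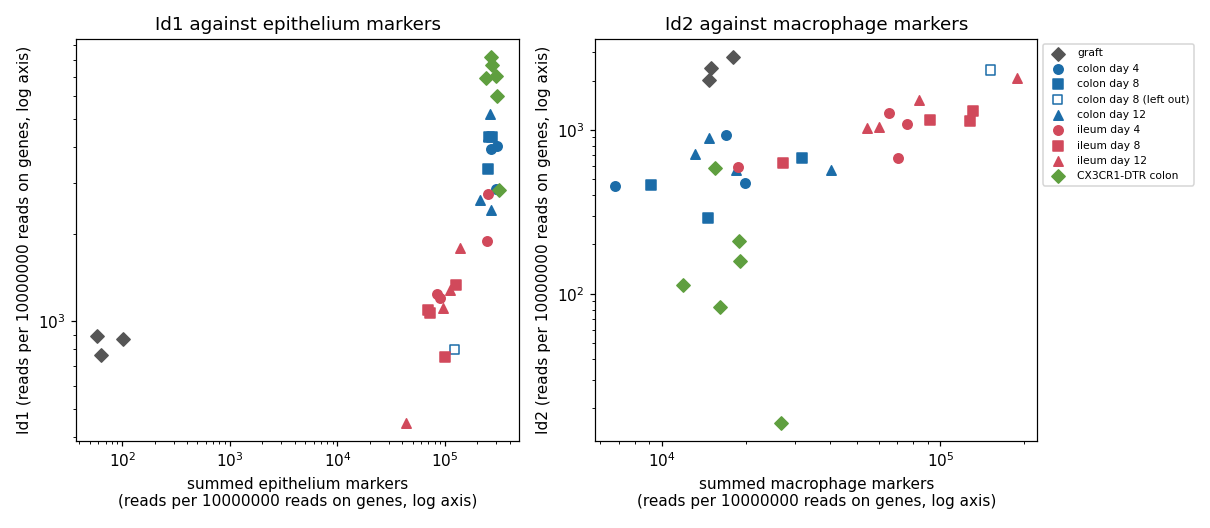
Id1 against the summed epithelial markers (left) and Id2 against the summed macrophage markers (right), per 10000000 reads on genes on log axes, with 1 point per library, colour for tissue and shape for day. Among ileum libraries Id1 tends to be higher where epithelial markers are higher. In the CX3CR1-DTR colon the library with the most epithelial reads (314765) has the least Id1 (2844). The 3 graft libraries hold Id1 with 57.7 to 102 epithelial reads.

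Relative to the markers of these cells the segment difference of Id1 was smaller and that of Id2 had the opposite sign. Exact permutation tests of 3 or 4 libraries per segment could give no adjusted p under 0.0571, so neither result could pass the threshold. Id1 had 12.5 ± 2.56, 15.4 ± 1.75 and 14.7 ± 4.91 reads per 1000 reads on epithelial markers in colon on days 4, 8 and 12 (SD, n = 3, 3 and 4) and 11.7 ± 3.09, 12.13 ± 3.85 and 11.7 ± 1.06 in ileum (n = 4 each). The log2 difference between segments was 0.12, 0.40 and 0.28, with two-sided exact permutation p = 0.686, 0.286 and 0.343 (adjusted 0.686, 0.514 and 0.514). Graft monocytes had 8520 or more Id1 reads per 1000 such reads. Id2 had 48.8 ± 22.5, 30.6 ± 17.5 and 39.8 ± 21.3 reads per 1000 reads on macrophage markers in colon and 18.8 ± 9.55, 13.6 ± 6.44 and 16.4 ± 3.65 in ileum. On that scale Id2 lay higher in colon, with log2 differences of 1.38, 1.13 and 1.10 and an exact permutation p of 0.114 on each day. In the graft the value was 151 ± 12.3, above all gut libraries. These ratios were chosen after the data were seen, and the part of other cells in the fitted differences was not tested further.

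**Figure D5:**
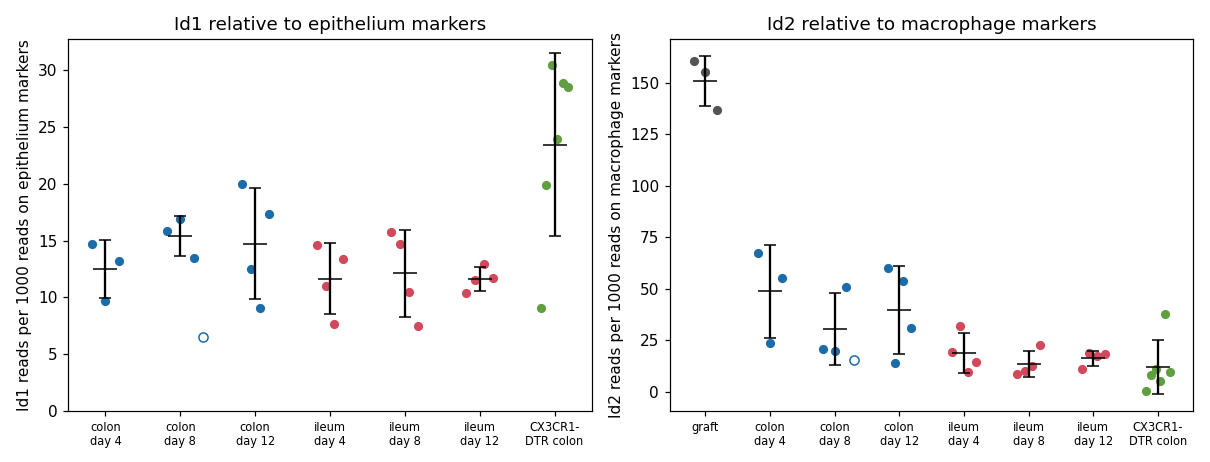
Id1 reads per 1000 reads on the 16 epithelial markers in gut libraries (left) and Id2 reads per 1000 reads on the 11 macrophage markers in all groups (right), with points for libraries, bars for mean and SD, and an open point for the library outside the main set. Colon and ileum overlap for Id1, and Id2 is highest in the graft.

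No Id gene changed past the threshold between days. In colon 0 of the 4 passed from day 4 to 8, 8 to 12 or 4 to 12 by edgeR, DESeq2 or the equal-variance test, and 0 had an unadjusted p under 0.05, against 0% of all genes called by edgeR in each (204, 329 and 245 genes at an unadjusted p under 0.05). DESeq2 called 0, 0 and 1 of all genes in these comparisons and the equal-variance test 1, 0 and 0. In ileum 0 of the 4 passed by any of these tools, against 5.13% of all genes from day 4 to 8, 0% from day 8 to 12 (796 genes at an unadjusted p under 0.05, and 0 called by DESeq2 or the equal-variance test) and 2.3% from day 4 to 12. The members at an unadjusted p under 0.05 in edgeR were Id1 with -0.67 ± 0.32 and Id4 with 1.55 ± 0.70 from day 4 to 8 in ileum (adjusted p = 0.223 and 0.202) and Id2 with 0.81 ± 0.31 from day 4 to 12 in ileum (adjusted p = 0.166). Without the ileum libraries of experiment 1 the Id1 value was 0.05. The interaction of segment and day, the change from day 4 to 12 in colon less that in ileum, was 0.61 for Id1 (95% interval -0.29 to 1.52) and -0.70 for Id2 (-1.59 to 0.19), with adjusted p = 0.924 and 0.886. By edgeR 0% of all genes passed this test and 739 had an unadjusted p under 0.05, DESeq2 called 1 gene, which was no Id gene, and the equal-variance test called 0.

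In the CX3CR1-DTR colon Id1 was again above the graft and Id2 below it. These values are reads per 10000000 reads on genes. Id1 had 2844 to 8196 (median of 6 libraries 7005), a mean 7.68 times that of the graft, against 768 to 888 in the graft and 2426 to 5229 in colon of day 12 from CD11c-DTR recipients. Id2 had 16.3, 158, 211, 82.6, 588 and 114, the lowest from 2 counts, against 2014 to 2781 in the graft and 566 to 889 in colon of day 12. Replicate 5, at 588, stood apart from the other 5, and without it the fitted log2 difference of Id2 from the graft was -4.07 in place of -3.27. Id3 had 2974 to 4108, against 24.7 to 98.6 in the graft. Id1 exceeded Id3 in 5 of the 6 libraries. The fitted log2 difference from colon of day 12 was 0.81 ± 0.29 for Id1, -1.77 ± 0.53 for Id2 and 0.36 ± 0.26 for Id3. Id4 had 0 to 4 counts per library and was not among the genes tested. Here Id1 took 48.7% to 70.8% of Id reads and Id2 0.28% to 5.59%. The epithelial markers lay at 240352 to 314765 in these libraries and at 210340 to 267617 in colon of day 12, and the recipients, the day and the count table differ together, so that their parts cannot be told apart.

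The partners of the Id proteins differed among themselves. Of the 3 E proteins, Tcf3 (which encodes E2A) was lower than in the graft on day 4 in colon by -1.44 ± 0.36 and in ileum by -0.96 ± 0.34 (adjusted p = 0.0016 and 0.0201), and Tcf4 (E2-2) was higher by 1.01 ± 0.42 and 1.62 ± 0.40 (adjusted p = 0.0403 and 0.0015). Tcf12 gave 0.11 ± 0.33 and 0.15 ± 0.32 and did not pass. Between segments on day 12 Tcf4 was lower in colon by -1.32 ± 0.36 (adjusted p = 0.0071), with 412 ± 104 normalized reads in colon and 952 ± 185 in ileum. From the graft to day 4, 35.9% of all genes were higher and 24.5% lower in colon, and 36.2% higher and 20.5% lower in ileum. Between segments on day 12, 15.3% of all genes were higher in colon and 17.2% lower.

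Other basic helix-loop-helix factors moved in both directions. Of 28, 21 were tested, and 9 were higher and 6 lower than the graft in colon on day 4, with 11 higher and 5 lower in ileum. Over all genes 35.9% were higher and 24.5% lower in colon, and 36.2% and 20.5% in ileum. Hes1, a Notch target, had 16.6 ± 10.8 normalized reads in the graft, 1269 ± 93.7 in colon and 1357 ± 304 in ileum on day 4. Atoh1, the factor of secretory epithelial cells, and Tcf21, a factor of mesenchymal cells, were at 0 in the graft and had 172 ± 29.2 and 115 ± 4.55 in colon, and Hey1 had 39.0 ± 39.4 in ileum from 0 in the graft. Msc, Tfec and Heyl were lower in colon than in ileum on day 12, by -3.29 ± 1.00, -2.78 ± 0.69 and -2.13 ± 0.73. Of the 21 tested, 6 were lower and 2 higher, beside 17.2% and 15.3% of all genes. Msc and Heyl reached the filter in ileum libraries alone, so their differences and the count of lower genes are not independent of that filter.

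The listed ligands of the BMP and TGF-beta families were mostly without reads in the graft. Of 13 ligands tested, 9 had no read there and could differ in 1 direction only. Of the other 4, Tgfb1 was lower and 3 were higher on day 4 in colon and also in ileum. Bmp2 had 376 ± 124 normalized reads in colon and 157 ± 94.9 in ileum on day 4, Bmp5 83.8 ± 14.5 in colon, Gdf15 488 ± 61.3 in colon and Inhbb 86.7 ± 88.0 in ileum. Tgfb1, the ligand that was lower, had 1137 ± 117 in the graft, 124 ± 48.2 in colon and 335 ± 188 in ileum. On day 12 Tgfb1, Inhbb and Tgfb3 were lower in colon than in ileum, by -2.70 ± 0.56, -2.54 ± 0.80 and -2.11 ± 0.68. Of the 13 ligands, 4 were lower and 0 higher, beside 17.2% and 15.3% of all genes. Inhbb and Tgfb3 reached the filter in ileum libraries alone, so their differences and the count of lower ligands are not independent of that filter. Epithelial, fibroblast and endothelial markers were also higher than in the graft, for 15 of 16, 6 of 6 and 6 of 7 tested in colon on day 4. Over all genes 35.9% were higher. Of these markers 4 epithelial, 5 fibroblast and 5 endothelial ones had no read in the graft and could differ in 1 direction only.

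Among 10 receptors tested, 5 were higher in colon and 8 in ileum than in the graft on day 4 and none was lower. Over all genes 35.9% were higher in colon and 36.2% in ileum, and 24.5% and 20.5% were lower. Bmpr1a, a type I BMP receptor, had no read in the graft and 207 ± 36.5 normalized reads in colon and 158 ± 47.4 in ileum. On day 12, 5 of the 10 receptors were lower in colon than in ileum and 0 higher, beside 17.2% and 15.3% of all genes. Among the lower were Eng and Acvrl1, receptors known from endothelium, and Tgfbr2, at -2.23 ± 0.63, -2.06 ± 0.44 and -1.12 ± 0.33. Tgfbr3, a co-receptor, had 1.94 ± 3.36 normalized reads in the graft and 27.7 ± 11.2 in colon. Acvr2a was higher than the graft by 2.73 ± 0.42 in colon, and Eng by 3.08 ± 0.75 in ileum. Of 7 SMAD genes tested, 3 were higher in colon, near the share of all genes, and 4 in ileum, and none was lower. Smad7 and Smad6, the inhibitory SMADs and themselves targets of the pathway, were higher by 2.74 ± 0.29 and 2.18 ± 0.42 in colon and by 2.80 ± 0.28 and 2.29 ± 0.41 in ileum. Smad1 was higher by 1.60 ± 0.32 and 0.99 ± 0.32. On day 12, 0 of the 7 differed between the segments by edgeR. Among 7 antagonists and feedback genes tested, Twsg1 and Skil were higher in both segments (2.56 ± 0.33 and 1.86 ± 0.34 in colon, 2.65 ± 0.33 and 2.47 ± 0.33 in ileum), Smurf1 was higher in ileum (1.06 ± 0.41), and Skil was lower in colon than in ileum on day 12 (-0.79 ± 0.27).

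Factors linked to Id genes in myeloid cells and immediate early genes were listed too. Of 15 factors tested, 5 were higher and 7 lower in colon, and 5 higher and 6 lower in ileum. From the graft to day 4, 35.9% of all genes were higher and 24.5% lower in colon, and 36.2% and 20.5% in ileum. Spi1, which encodes PU.1, was lower in colon by -3.81 ± 0.68, Nr1h3, which encodes LXR alpha, was higher by 4.66 ± 0.63 in colon and 5.22 ± 0.63 in ileum, Ets2 by 4.56 ± 0.35 and 4.64 ± 0.34, and Ets1 by 4.52 ± 0.80 in ileum. Between segments on day 12, 10 of the 15 were lower in colon and 1 higher, beside 17.2% and 15.3% of all genes. Irf4, Batf3 and Ets1 were among the lower, at -2.95 ± 0.66, -2.83 ± 0.58 and -2.77 ± 0.59. Of 14 immediate early genes, 7 were higher in colon and 10 in ileum, with Egr1 at 7.84 ± 0.64 and 8.30 ± 0.65. Egr2 had 0.936 ± 1.62 normalized reads in the graft, 81.9 ± 26.6 in colon and 139 ± 102 in ileum, and Egr3 had 0.807 ± 1.40, 28.1 ± 4.66 and 48.9 ± 23.0. None was lower than the graft in edgeR. Egr3 and Ier3 were lower in colon than in ileum on day 12, by -2.19 ± 0.71 and -1.21 ± 0.43.

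The genes most like each member over the 25 libraries are given as a description of log2(normalized reads + 50), since the libraries share depth and groups. Nearest to Id1 were 2310061I04Rik, Thap4, Idh3b, Etv4 and Csad, with r of 0.95 to 0.959, and over the 22 gut libraries Plekha6, Thap4, Pak4, Ihh and Cdx1, with r of 0.966 to 0.978. Ihh and Cdx1 are genes of the gut epithelium. Nearest to Id2 were Crlf3, Uvrag, Was, Anxa5 and Dock2, with r of 0.915 to 0.924, of which Was and Dock2 are known from blood cells, and over gut libraries Ctsb, Grk3, Crlf3, Jdp2 and Dock8, with r of 0.833 to 0.849. Near to Id3 were Nfib, Baiap2l2, Sept5 and Cyr61, with r of 0.957 to 0.965, and over gut libraries Nup188, Col1a1, Exosc2, Islr and Sod3, with r of 0.768 to 0.815. Col1a1 and Islr are genes of stromal cells. Between members, r was -0.62 for Id1 and Id2, 0.41 for Id1 and Id3 and -0.69 for Id2 and Id3 over 25 libraries, and -0.60, 0.37 and 0.02 over the 22 gut libraries, so the negative r of Id2 and Id3 was seen only with the graft libraries included.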

How the data were processed

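RNA was profiled with a 3′ method derived from MARS-seq. As the authors describe, reads were aligned to mm9 with HISAT 0.1.6 and counted by HOMER on the sense strand of exons, 1 transcript per gene, and the raw counts were deposited. Whether molecular identifiers were collapsed is not given in the sources used here. Counts were scaled to 10000000 mapped reads (normalized reads). Values of the CX3CR1-DTR libraries, and those set against them, were scaled to 10000000 reads on genes. The floor was 3 counts, and floors cover counting error only. A further 52 unnamed columns were not used. Both tables share 24148 symbols.

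Fold changes came from edgeR 4.0.16 (TMM, quasi-likelihood test, Benjamini-Hochberg adjustment, threshold 0.05) in R 4.3.3. The fit took 25 libraries in 7 groups and the 11842 genes that reached 50 normalized reads in 3 or more of them. CX3CR1-DTR libraries were fitted with graft and colon day 12 on shared symbols. The SE is the size of the log2 fold change over the root of F. The scripts were tested on simulated data. All 51 pairs of libraries of a group differed by more than sampling noise, with a chi-square per degree of freedom of 4.73 or more. Experiments were read from dates in the labels. The date of ileum day 8 replicate 2 lies a year before those of its companions and was read as a slip. The median correlation of deviations from group means was 0.02 within and -0.01 between experiments, and experiment entered only an alternative, as a replicate block. A median over all pairs does not describe single groups. With the block, 1265 genes in place of 377 were called between segments on day 4. From day 4 to 8 in ileum 0 genes in place of 608 were called.

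Members, gene lists and the rule for named genes were chosen with earlier results of these data known. The rule named all 4 members, the E proteins, up to 3 called genes of the largest change in each other list (graft to day 4, and colon against ileum on day 12) and the 5 genes most like Id1, Id2 and Id3, of which 1 is not reported here. Alternatives were median-ratio size factors, scaling to library totals or to reads on genes, no filter, DESeq2 1.42.0, an equal-variance test on log2(normalized reads + 50), a fit of the compared groups alone, other library sets, the replicate block and leaving out each library. Ratios to marker lists were added after the data were seen.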

Additional observations from a re-analysis of the deposited data

Results flagged for a closer look

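In the CX3CR1-DTR colon, replicate 5 had 588 reads of Id2 per 10000000 reads on genes, far from the other 5 libraries (16.3 to 211). Chance flags about 1 in 20 of such sets of values, and 20 sets (4 genes in 5 groups of 4 to 6 libraries) were examined.

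The colon day 8 library of experiment 1, which no comparison above includes unless named, had 1040 normalized reads of Id3, above the 17.4 to 67.8 of the graft. It had 476 of Id1 and 1382 of Id2, both below the 3 graft libraries, and none of Id4. Its macrophage markers summed to 90416 normalized reads and its epithelial markers to 72756. The other 3 libraries of colon day 8 held 5571 to 20561 and 153278 to 176632.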

How the results depend on the processing

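The direction of Id1 between colon and ileum was the same in all fitted alternatives, with its calls on days 8 and 12 kept in each (largest adjusted p = 0.00958 and 0.0491). Relative to epithelial markers, an alternative added after the data were seen, the day 8 and 12 values were 0.40 and 0.28 (exact permutation adjusted p = 0.514 each). Relative to macrophage markers Id2 turned to 1.38, 1.13 and 1.10 on days 4, 8 and 12 (adjusted p = 0.114 each). With these library numbers neither ratio could reach an adjusted p under 0.0571 in the permutation test. For the other reversals and lost or gained calls below the cause was not tested.

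Scaling to library totals gave, from the graft, 1.93 and 2.14 for Id1 in colon on days 4 and 8, 0.75 and -0.012 in ileum on days 4 and 8, -2.004 for Id2 in colon on day 12, -1.80, -1.52 and -1.06 for Id2 in ileum on days 4, 8 and 12, and 5.00 for Id3 in ileum on day 4. It gave 0.18 for Id3 between segments on day 8. DESeq2 called Id1 on day 4 (1.09, adjusted p = 0.0314) and Id4 on day 12 (-1.62, adjusted p = 0.0455), which made 1 Id gene called on day 4.

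The equal-variance test gave, from the graft, 1.82, 2.04 and 1.75 for Id1 in colon on days 4, 8 and 12, 0.59, -0.041 and -0.0065 in ileum, 3.94, 4.14 and 4.05 for Id3 in colon, 3.98, 3.94 and 4.09 in ileum, and -1.50 and -1.07 for Id2 in ileum on days 8 and 12. Its pseudocount of 50 lowers the folds of genes with few reads. Between segments it gave -0.76 for Id4, -0.83 for Id2 and 0.20 for Id3 on day 8 and -0.84 for Id2 on day 12, with 1 Id gene called on each of these days.

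With all 4 colon day 8 libraries, Id2 was -1.07 and Id1 2.09 from the graft on day 8, and Id2 between segments was -0.058 on day 8 and -1.12 on day 12, with 1 Id gene called on day 12. Without the ileum day 4 libraries of experiment 1, Id1 was 0.47 from the graft and 1.79 between segments on day 4, with 1 Id gene called, 0.051 from day 4 to 8 in ileum and -0.10 for the interaction, and Id4 was -1.57 on day 12 (adjusted p = 0.0484). With experiment as a replicate block, Id1 was 1.43 (adjusted p = 0.0146) and Id3 0.10 on day 4, and 1 Id gene was called. The block changed no other call of an Id gene between segments or days.

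Leaving out 1 library at a time, the values from the graft ran from -2.21 to -1.58 for Id2 in colon on day 4. For Id3 they ran from 4.86 to 5.78, 5.00 to 5.92 and 5.01 to 5.93 in colon on days 4, 8 and 12, and from 5.00 to 5.92 in ileum on day 4. To the CX3CR1-DTR colon they ran from -4.07 to -3.11 for Id2 and from 5.56 to 6.42 for Id3. Between segments they ran from 0.89 to 1.41 for Id1 and -0.25 to 0.0059 for Id3 on day 4. On day 8 they ran from -1.50 to -0.95 for Id2, -0.26 to 0.085 for Id3 and -2.94 to -1.70 for Id4, and on day 12 from -1.29 to -0.78 for Id2 and -2.02 to -1.21 for Id4. Id4 was called on day 12 without colon day 12 replicate 1 (adjusted p = 0.0437) or ileum day 12 replicate 1 (adjusted p = 0.0219). Of all genes 26% and 25.8% were called in these fits. Since Id4 reached the filter through ileum libraries alone, its calls between segments are not independent of that filter. On day 4 it was 0 to 1 Id genes that were called.

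Id4, with 0 to 40 counts per library of the first experiment, was the member most limited by depth.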
